A study of Mus musculus with 12 samples.

Results

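The genes described here are Klf2, Klf4 and Klf6, 3 Krüppel-like factor genes, with the 34 accessible regions that lie within 50 kb of them in mouse macrophage lines, out of 76042 regions in all. The regions come from ATAC-seq, in which a transposase cuts and tags open DNA, in RAW264.7 cells, an established mouse macrophage line. In 1 stable line doxycycline switched on Nur77, the orphan nuclear receptor encoded by Nr4a1, and in the other it switched on green fluorescent protein (GFP). All 12 libraries came from cells given 1 µg/ml doxycycline for 18 h, so the GFP line is the induced control and keeps its own Nr4a1 gene. The 4 groups had 3 libraries each: the GFP line without lipopolysaccharide (LPS), the GFP line after 500 ng/ml LPS for 1 h, the Nur77 line without LPS, and the Nur77 line after the same LPS treatment. There is 1 line of each kind, so the effect of Nur77 cannot be told apart from any other difference between the 2 lines, and whether a line is a clone or a pool is not given in the sources used here. Nothing in the labels says that the replicates were separate cultures, so p-values measure the spread between libraries, which may be technical.

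Members were chosen by position and call: peaks of the 12 lists were merged, regions present in at least 2 lists were kept, and those within 50 kb of the 3 genes were taken. That gave 16 regions near Klf2 on chromosome 8, 6 near Klf4 on chromosome 4 and 12 near Klf6 on chromosome 13 (build mm10). The genes were chosen with their calls in these libraries known, so calls are given as a description with no test. A region is called in a library when the authors' list has a peak there. A gain by LPS means a call in 3 of 3 treated and 0 of 3 untreated libraries of a line, a gain between lines means 3 of 3 Nur77 and 0 of 3 GFP libraries, and a loss is the reverse. A list percentile places a peak among the peaks of the same library by −log10 q, where 100 is the strongest, and a fold is the authors' enrichment at a summit over background.

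Krüppel-like factors are zinc finger transcription factors that bind GC-rich and CACCC elements. In macrophages and endothelium Klf2 and Klf4 restrain inflammatory gene expression, and both are classic targets of the kinase ERK5 and its MEF2 factors. Klf4 also takes part in alternative macrophage activation, while Klf6 has been linked to NF-kB-driven inflammatory expression. LPS, a bacterial cell wall component, activates macrophages through the receptor TLR4.

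The promoter sequences are shown because a promoter peak separates the 2 lines at Klf6 and not at Klf2 or Klf4. Each runs from 250 bp before to 50 bp after the RefSeq start site (GRCm38.p6, the mm10 build), 5′ to 3′ on the gene's strand, and all 3 genes were matched. Capitals mark the GC box (GGGCGG), the CCAAT box (CCAAT) and the E-box (CACGTG), each on either strand.
Klf6, chr13:5861239-5861538, + strand: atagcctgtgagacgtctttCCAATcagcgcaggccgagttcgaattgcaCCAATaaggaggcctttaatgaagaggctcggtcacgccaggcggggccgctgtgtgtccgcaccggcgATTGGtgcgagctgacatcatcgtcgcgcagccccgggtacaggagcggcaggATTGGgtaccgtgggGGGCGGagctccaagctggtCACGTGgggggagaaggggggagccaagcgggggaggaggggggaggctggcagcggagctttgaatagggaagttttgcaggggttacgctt
Klf2, chr8:72318812-72319111, + strand: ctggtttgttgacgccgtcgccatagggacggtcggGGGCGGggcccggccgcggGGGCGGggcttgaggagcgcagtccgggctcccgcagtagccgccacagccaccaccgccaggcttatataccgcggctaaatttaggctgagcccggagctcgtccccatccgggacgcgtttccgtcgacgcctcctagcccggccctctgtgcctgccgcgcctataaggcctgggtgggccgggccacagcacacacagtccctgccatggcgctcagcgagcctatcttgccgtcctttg
Klf4, chr4:55532426-55532725, − strand: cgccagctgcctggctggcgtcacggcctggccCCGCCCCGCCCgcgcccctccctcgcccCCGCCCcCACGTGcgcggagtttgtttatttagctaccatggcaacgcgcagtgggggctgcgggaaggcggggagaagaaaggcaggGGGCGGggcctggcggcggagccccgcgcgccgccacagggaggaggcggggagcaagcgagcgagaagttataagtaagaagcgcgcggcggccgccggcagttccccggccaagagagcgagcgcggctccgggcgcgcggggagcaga

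The Klf6 window holds 4 CCAAT boxes, which begin 230, 200, 131 and 78 bp before the start site, with 1 GC box and 1 E-box. Of 21263 protein-coding promoters of the same length, 38.2% hold a CCAAT box and 1.25% hold at least 4. The Klf2 window holds 2 GC boxes and 0 CCAAT boxes. The Klf4 window holds 4 GC boxes, of which 2 share 1 base, and 1 E-box. GC boxes occur in 46.2% of the promoters and E-boxes in 7.84%. The KLF motif CACCC occurs in 59.5% of promoters and once in the Klf2 window, 19 bp before the start site. The letters searched for AP-1 (TGANTCA, in 6.99% of promoters), the cyclic AMP element (TGACGT, 8.49%) and the Nur77 monomer element (AAAGGTCA, 1.3%) are not in these 3 windows. Such matches are descriptions of letters, and factor binding was not measured.

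Across the series the lists held 36184 to 81467 peaks, and read totals were not used here because the lists do not give them. The number of member regions called moved only in part with list length. Of the 34, 17 to 32 were called per library, with the most in the longest list, the third GFP library after LPS. The shortest list, the second untreated Nur77 library, called 18. The fewest, 17, were called in the first GFP library after LPS, which had 48275 peaks. Of 10 macrophage marker genes, 10 had a region at a gene end called in all 12 libraries, as did 2 of 5 T cell, 1 of 4 B cell, 1 of 4 fibroblast, 0 of 4 epithelial and 1 of 4 neuronal markers. The share of all genes with such a region is not given here, so these counts are a description and no test of cell identity.

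Of the 34 regions, 11 were called in all 12 libraries (32.4%), beside 34.7% of all regions. These were 4 of 16 at Klf2, 1 of 6 at Klf4 and 6 of 12 at Klf6. A further 7 regions were called in 10 or 11 libraries, 6 in 6 to 9 and 10 in 2 to 5. In the plot of list percentiles the constant regions form the bright rows, and the rows with grey cells are mostly dark.

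**Figure D1:**
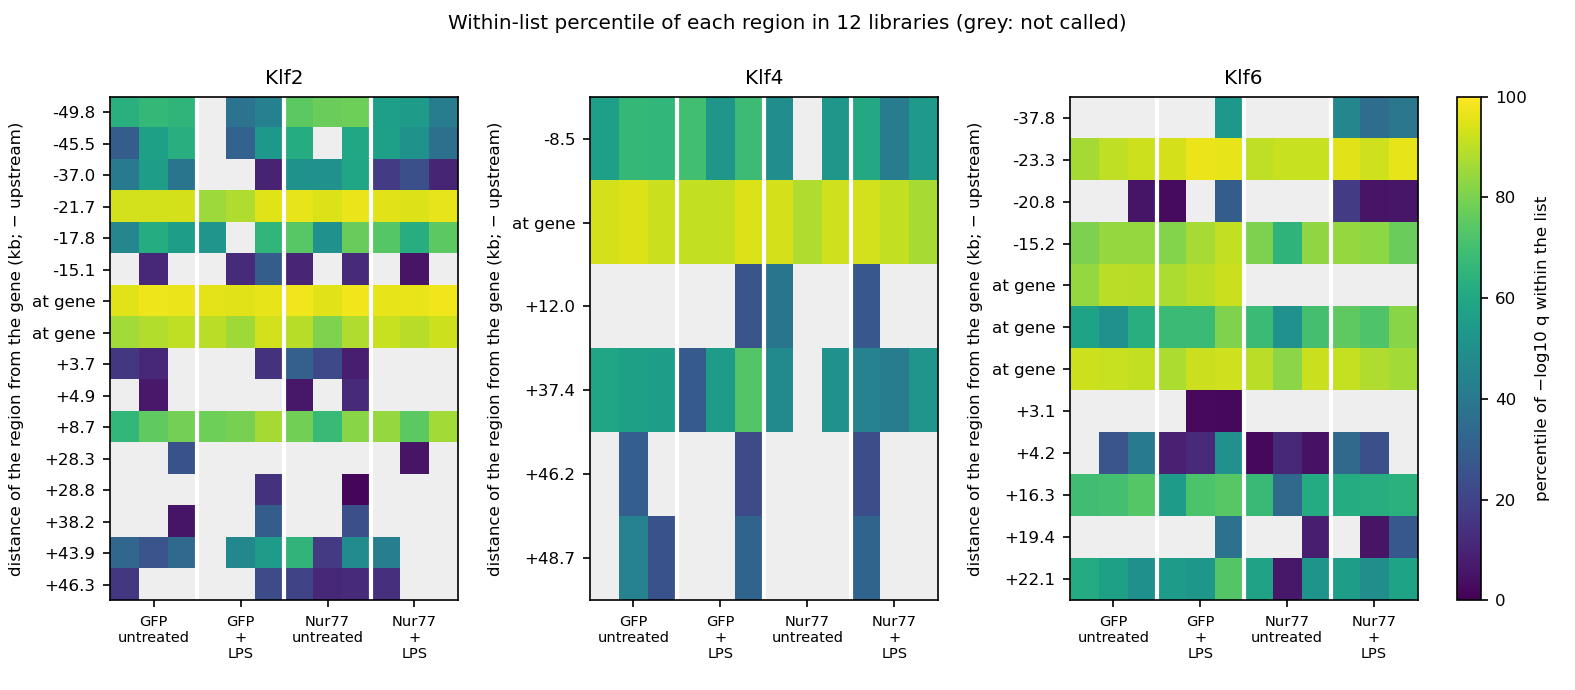
List percentile of the 34 regions (rows, ordered along the direction of transcription, labelled by distance from the gene in kb, with upstream negative) in the 12 libraries (columns, 3 per group). Grey cells are libraries without a call. The first of the 3 Klf6 rows at the gene, over the start site, is called in the 6 GFP libraries and grey in the 6 Nur77 libraries.

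Klf6 is the gene at which a whole region separated the lines. Its promoter region (chr13:5860572-5862494, over the start site and the first part of the gene) was called in 6 of 6 GFP libraries and 0 of 6 Nur77 libraries. In the untreated GFP libraries its list percentiles were 84.0, 89.8 and 89.4, and after LPS 87.6, 89.5 and 91.9, which gives 88.7 ± 2.7 (SD, n = 6). The folds were 38.6, 54.5 and 54.7 untreated and 32.6, 46.0 and 62.0 after LPS. The summits lay 172 to 193 bp before the start site, inside the printed window and between the CCAAT boxes that begin at 200 and 131 bp. No Nur77 library listed a peak there, although these lists reached down to folds of 3.98 to 4.34. The lists do not show whether reads cover this sequence at all in the Nur77 line, so the missing calls give no level there.

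On both sides of this gap the Nur77 libraries did have peaks. The upstream peak nearest to the promoter was called in all 12 libraries and ended 15170 to 15411 bp before the start site. Its strongest folds were 25.5 to 57.6 in the GFP libraries and 20 to 48.8 in the Nur77 libraries. The first peak of the gene body began 1718 to 1879 bp after the start site in the GFP libraries and 1823 to 2140 bp after it in the Nur77 libraries. Between those peaks each GFP list held 1 peak, the one over the start site, and each Nur77 list held 0. The extent of the gap in the Nur77 libraries can therefore not be placed more closely than these edges.

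Few strong regions shared this pattern of calls. It was seen at 432 of 76042 regions (0.568%), and the Klf6 promoter had the highest mean percentile among them. The next was a region over Ppargc1a, a metabolic coactivator gene, at 82.2 ± 4.1 (SD, n = 6). Regions 73.8 kb from Plpp4 and 3.2 kb from Ankdd1a were also near the top, at 77.2 and 76.8. The opposite pattern, 6 of 6 Nur77 and 0 of 6 GFP libraries, was seen at 44 regions. Of 8098 promoter regions called in 6 of 6 GFP libraries, 17 (0.21%) were called in 0 of 6 Nur77 libraries, and after Klf6 the highest was that of Fam117a at 64.6 ± 13.8 (SD, n = 6). Within 1 Mb of Klf6 lie 55 regions, of which 19 were called in all 12 libraries and 1, the promoter, had this pattern. Within 1 Mb of Klf2 and of Klf4, 0 of 148 and 0 of 54 regions had it.

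**Figure D2:**
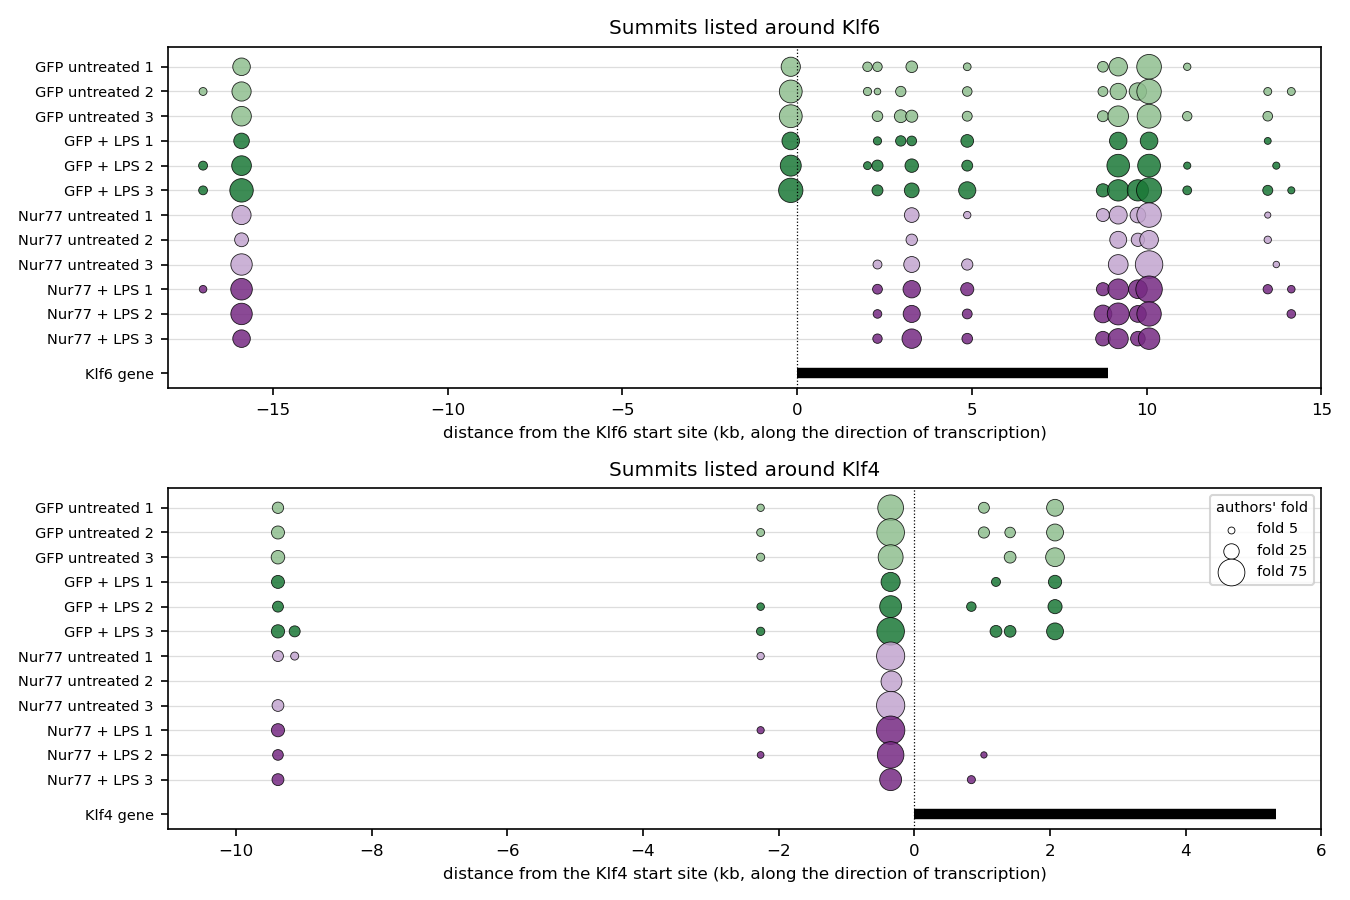
Summits listed in at least 2 libraries around Klf6 (top) and Klf4 (bottom), 1 row per library, at their distance from the start site in kb along the direction of transcription. Circle area is the authors' fold and the black bar is the gene. The column at the Klf6 start site is filled in the 6 GFP libraries, as is the column about 2 kb after the Klf4 start site, and both are empty in the 6 Nur77 libraries.

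Klf4 showed a line difference inside a region that was called in all libraries. The region over the gene and its start (chr4:55529991-55535204) had list percentiles of 87.1 to 94.9 over the 12 libraries. Its main summit lay 297 to 401 bp before the start site, just outside the printed window and inside the neighbouring lncRNA gene Gm12506. Its folds were 69.3, 79.9 and 65.0 in the untreated GFP libraries and 38.3, 50.1 and 79.6 after LPS. The Nur77 libraries had 83, 45.7 and 83.8 untreated and 84.5, 73.9 and 50.3 after LPS, so the lines overlap at the promoter summit.

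A further summit in the gene, 2055 to 2094 bp after the start site, was listed in 6 of 6 GFP and 0 of 6 Nur77 libraries. Its folds were 29.7, 30.0 and 36.9 in the untreated GFP libraries and 18.4, 20.9 and 29.8 after LPS. The strongest summit anywhere in the gene in a Nur77 library was weaker: 2 untreated libraries listed none, the other had a fold of 4.9 at 1738 bp, and the 3 LPS libraries had folds of 9.1, 4.2 and 6.8 at 528, 991 and 811 bp. The GFP and Nur77 libraries do not overlap in this value, which in each GFP library is the fold of the summit at 2055 to 2094 bp. The value was looked at after that summit was seen, and the share of all genes that it separates was not computed. Comparing summits in place of regions was chosen after the lists were seen. Neighbouring summits at most 100 bp apart were joined into clusters. Of 110853 summit clusters present in at least 2 lists, 389 (0.351%) were in every GFP and no Nur77 library. By mean fold the Klf6 promoter ranked 1 and the Klf4 summit 7 of 389. Of these 389, 27 lie in regions called in all 12 libraries.

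The peaks over Klf4 were shorter on the gene side in the Nur77 line. They covered 4836, 5017 and 4819 bp in the untreated GFP libraries and 4160, 4568 and 5155 bp after LPS. The Nur77 peaks covered 3133, 1558 and 4227 bp untreated and 3462, 2827 and 2234 bp after LPS. The lines do not overlap within either treatment, though the widest untreated Nur77 library exceeded the narrowest GFP library after LPS. The lowest value, 1558 bp, came from the shortest list (36184 peaks) and the highest, 5155 bp, from the longest (81467 peaks). The edge inside the gene lay 2282 to 2484 bp after the start site in the GFP libraries and 332 to 1994 bp after it in the Nur77 libraries. The GFP lists held 4 to 6 summits in the region and the Nur77 lists 1 to 3. The share of all regions at which covered bases, edges or summit counts separate the lines was not computed.

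**Figure D3:**
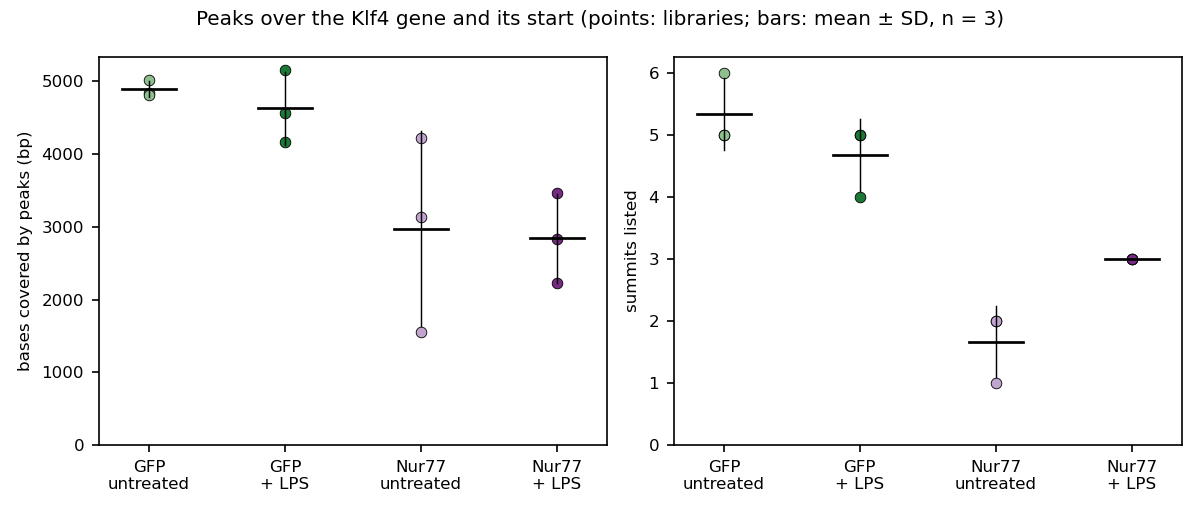
Bases covered by peaks (left, bp) and number of summits (right) in the region over Klf4, by group. Points are libraries (equal counts lie on each other) and bars are mean ± SD (n = 3). The 6 GFP libraries have 4 to 6 summits and the 6 Nur77 libraries 1 to 3.

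The other Klf4 regions were weaker, and the one 8.5 kb upstream overlaps the lncRNA genes Gm12506 and Gm34343. Those 8.5 kb upstream (chr4:55540979-55542284) and 37.4 kb downstream (chr4:55488633-55489715) were each called in 11 libraries and missing from the second untreated Nur77 library, the shortest list. At 8.5 kb upstream the list percentiles were 56.5, 66.5 and 66.3 in the untreated GFP libraries and 69.8, 53.0 and 68.5 after LPS. The Nur77 libraries had 49.2 and 52.9 untreated and 60.4, 42.5 and 53.7 after LPS. The 37.4 kb region ranged from 28.4 to 73.2. Those 12, 46.2 and 48.7 kb downstream were called in 3 to 4 libraries with percentiles of 23.0 to 44.4.

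In the 4 comparisons of calls the members gave few changes. In the GFP line LPS gained 0 and lost 0 of the 34 regions, beside 1.96% and 1.02% of all regions. In the Nur77 line LPS gained 2 (5.88%, beside 1.94%) and lost 1 (2.94%, beside 0.46%). Between the untreated lines the Nur77 line lost 1 (2.94%, beside 3.4%) and gained 0 (beside 0.308%). After LPS it lost 1 (2.94%, beside 2.18%) and gained 0 (beside 0.304%), and both losses are the Klf6 promoter. With 3 libraries against 3, the smallest two-sided exact p for a single region is 0.1.

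These small counts move with single libraries. Without the first GFP library after LPS, the GFP line gained 1 by LPS and the Nur77 line after LPS lost 2. Without the third GFP library after LPS, the GFP line lost 1 by LPS and the Nur77 line after LPS gained 2. Without the first untreated GFP library the untreated Nur77 line gained 1 and lost 2. The LPS losses of the Nur77 line came to 2 without its second untreated library and to 3 without its first LPS library.

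Both regions gained by LPS in the Nur77 line lie upstream of Klf6. The region 37.8 kb upstream (chr13:5823257-5823690) had list percentiles of 46.1, 35.9 and 39.5 in the Nur77 libraries after LPS and was called in 0 untreated libraries of either line. It was also called in 1 GFP library after LPS, the longest list, at 53.4. The region 20.8 kb upstream (chr13:5840172-5840667) was near the bottom of the lists, at 17.3, 5.2 and 6.0. It was called in 1 untreated and 2 LPS-treated GFP libraries as well. The lost region, 3.7 kb downstream of Klf2 (chr8:72325353-72326230), had percentiles of 30.8, 22.0 and 8.4 in the untreated Nur77 libraries and was called in 3 GFP libraries at 11.7 to 16.3.

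Ranks among the 26378 regions called in all 12 libraries are not used by the rule that chose the members, and they were tested with limma over all those regions with Benjamini-Hochberg adjustment. Each library's ranks by −log10 q were turned into normal scores. Values are given as shared percentiles, the rank within this set, and differences are in normal scores with their standard errors. LPS in the GFP line called 3 of 11 members, each higher, beside 16.6% of all regions. LPS in the Nur77 line called 0 of 11, beside 12.5%. At an unadjusted limma p under 0.05 it had 1 of the 11, beside 6789 of all 26378 regions. The Nur77 line against the GFP line called 1 of 11 without LPS (beside 6.68%) and 1 of 11 after it (beside 7.22%), both higher. The difference between the 2 LPS responses passed limma's threshold at 0 of 26378 regions (0%), with 1944 at an unadjusted p under 0.05, of which 0 were members. The 3 libraries of one group lay wholly above or below those of the other at 4, 2, 3 and 1 of the 11 in these 4 comparisons, beside 35.7%, 30.2%, 25.7% and 27.8% of all regions.

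**Figure D4:**
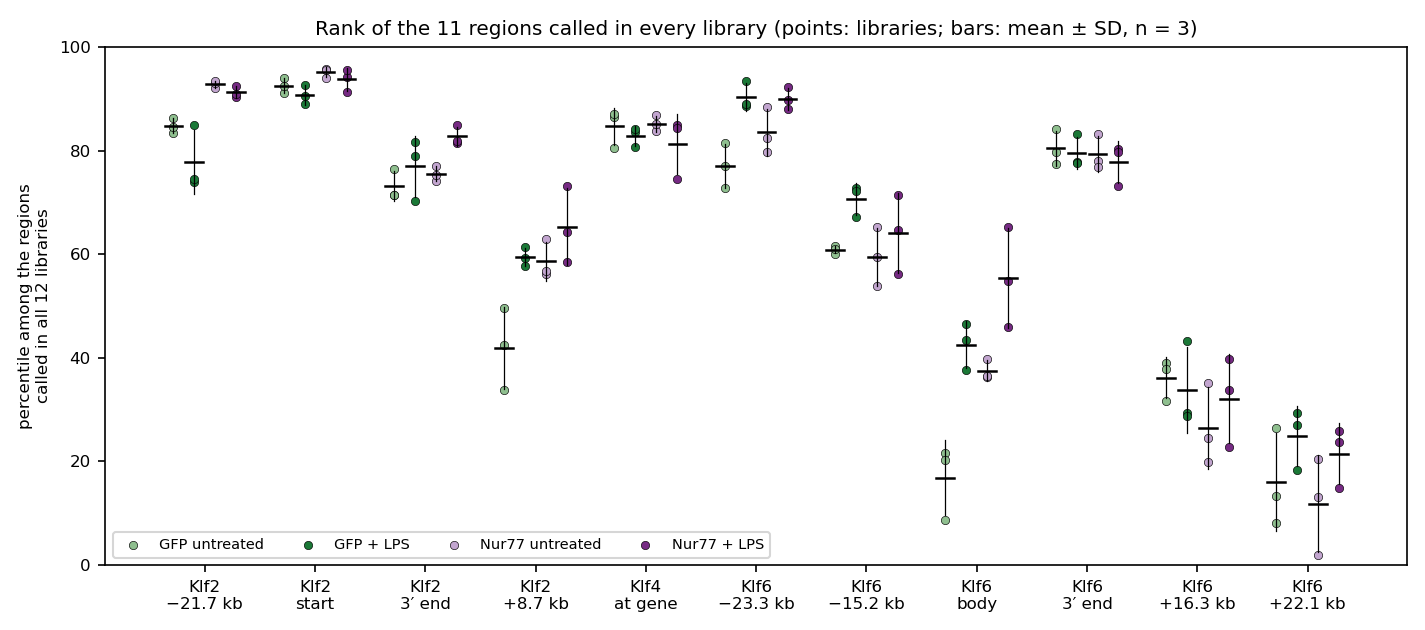
Shared percentile (y axis) of the 11 regions called in all 12 libraries (x axis, by gene and position), with points for libraries and bars for mean ± SD (n = 3 per group). The Klf6 body region rises from 8.6 to 21.7 in the untreated GFP libraries to 37.6 to 46.6 after LPS, and the region at the Klf2 start stays between 88.9 and 95.7 in the 12 libraries.

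Klf6 held 2 of the 3 regions that rose with LPS in the GFP line. The region inside the gene body (chr13:5863207-5867709) had shared percentiles of 21.7, 8.6 and 20.3 untreated and 46.6, 37.6 and 43.5 after LPS. The normal score rose by 0.81 ± 0.17 (SE; limma, adjusted p = 0.00614). In the Nur77 line the same region had 36.2, 36.5 and 39.8 untreated and 45.9, 54.9 and 65.3 after LPS (difference 0.46 ± 0.17, limma, adjusted p = 0.0997). The groups do not overlap in either line, and the difference between the responses did not pass (limma, adjusted p = 0.808). Without LPS the Nur77 line was higher than the GFP line by 0.68 ± 0.17 (limma, adjusted p = 0.0308). That call was lost without the second untreated GFP library (adjusted p = 0.109) and without untreated Nur77 library 1, 2 or 3 (0.0712, 0.0592 and 0.0877), and in the set of regions called in at least 10 libraries (0.102).

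The summits inside this Klf6 region can be compared within each library. The summit 4808 to 4927 bp after the start site had 0.44, 0.86 and 0.59 times the fold of the strongest summit before 4 kb in the untreated GFP libraries, and 1.5, 0.66 and 1.36 times after LPS. In the Nur77 line the ratio was 0.25 and 0.5 in the untreated libraries that listed both, and 0.57, 0.33 and 0.3 after LPS. The untreated and LPS-treated libraries overlap in both lines, and these ratios were not tested.

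The region 23.3 kb upstream of Klf6 (chr13:5836835-5838188) had shared percentiles of 72.8, 77.0 and 81.4 in the untreated GFP libraries and 88.6, 93.4 and 89.0 after LPS. The groups do not overlap, and the score rose by 0.57 ± 0.14 (SE; limma, adjusted p = 0.0144). The Nur77 values were 79.7, 88.5 and 82.4 untreated and 89.7, 88.1 and 92.2 after LPS, which overlap (difference 0.30 ± 0.14, limma, adjusted p = 0.195). The GFP call was lost without the first untreated library (adjusted p = 0.0604) and without the second LPS library (0.0596). The region over the Klf6 3′ end (chr13:5869671-5873341) had 73.2 to 84.1 over the 12 libraries and passed in none of the limma contrasts. Those 15.2 kb upstream, 16.3 kb downstream and 22.1 kb downstream did not pass either.

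At Klf2 the promoter region (chr8:72317147-72320922), which holds the printed window, was among the strongest regions of each library. Its list percentiles were 95.6 to 97.9, and its summit lay 21 to 74 bp before the start site with folds of 53.9 to 131.3. The shared percentiles were 91.1, 94.0 and 92.4 in the untreated GFP libraries and 92.7, 90.6 and 88.9 after LPS. The Nur77 values were 95.7, 94.0 and 95.6 untreated and 91.3, 94.3 and 95.6 after LPS. The groups overlap in each contrast, and the limma adjusted p ran from 0.335 to 1. The region over the 3′ end of the gene (chr8:72321559-72323893) had 70.3 to 84.9 and passed in none of the contrasts.

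Of the Klf2 regions, 2 distal ones passed. The region 21.7 kb upstream (chr8:72294347-72297318) was higher in the Nur77 line after LPS, at 90.4, 91.0 and 92.5 against 74.0, 74.6 and 84.9 in the GFP line (difference 0.58 ± 0.12 SE, limma, adjusted p = 0.0139). Without LPS it was 92.0, 93.0 and 93.4 against 86.3, 83.4 and 84.6, which do not overlap but missed the threshold (0.44 ± 0.12, limma, adjusted p = 0.0515). The call after LPS was lost without the second GFP library after LPS (adjusted p = 0.0521) and without the third Nur77 library after LPS (0.0525). The region 8.7 kb downstream (chr8:72330358-72332037) rose with LPS in the GFP line from 33.7, 42.4 and 49.6 to 61.3, 57.8 and 59.2 (0.45 ± 0.14 SE, limma, adjusted p = 0.0417). The Nur77 libraries had 56.1, 56.8 and 63.0 untreated and 64.3, 58.4 and 73.2 after LPS (0.18 ± 0.14, limma, adjusted p = 0.465). Its GFP call was lost in 9 of 16 alternatives, with adjusted p of 0.0527 to 0.158 when 1 of 7 single libraries was left out (the first and second untreated GFP, the 3 GFP after LPS, the first untreated Nur77 and the first Nur77 after LPS).

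None of the 5 rank calls held when the percentile in the whole list replaced the rank within the shared set (on a logit scale; limma, adjusted p from 0.109 to 0.692). The directions were the same in all 16 alternatives of each call.

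Far upstream of Klf2, 2 weaker regions were lower after LPS in the Nur77 line, and 1 of them also in the GFP line, in the wider set of 35864 regions called in at least 10 libraries, where each library's ranks cover its own called regions, a different set in each library, and missing libraries drop out of the fit. The region 49.8 kb upstream (chr8:72268071-72269239) had percentiles of 45.5, 41.7 and 40.1 in the untreated GFP libraries and 16.2 and 6.5 in the 2 LPS libraries that called it. The score fell by 1.06 (SE 0.20, limma, adjusted p = 0.00686). In the Nur77 line it went from 61.2, 73.1 and 65.7 to 31.5, 43.7 and 22.8, a drop by 0.90 (SE 0.18, limma, adjusted p = 0.0112). The groups overlap in neither line, though the GFP line has only 2 LPS values here. The share of this wider set without overlap was not computed. After LPS it was higher in the Nur77 line by 0.79 ± 0.20 (limma, adjusted p = 0.0475).

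The region 37.0 kb upstream (chr8:72281446-72282080) overlaps the lncRNA gene Gm51537. It had 18.9, 26 and 10 in the untreated GFP libraries and 0.1 in the 1 LPS library that called it. The GFP contrast of this region rests on that 1 LPS library, so its test is not used here. In the Nur77 line the region went from 27.8, 43.1 and 38.2 to 2.0, 12.6 and 2.2. The Nur77 score fell by 1.39 (SE 0.26, limma, adjusted p = 0.0101). Another region, 17.8 kb upstream (chr8:72300344-72301260), was higher in the untreated Nur77 libraries (59.9, 43.1 and 64.0) than in the untreated GFP libraries (23.6, 34.6 and 26.2), with a difference of 0.73 ± 0.16 (limma, adjusted p = 0.0256). In this set 18 members were tested. In the GFP line LPS called 2 members higher and the 49.8 kb region lower, beside 14% of these regions. The 37.0 kb region is left out of these GFP calls. In the Nur77 line LPS called 2 (both lower, beside 9.89%). The Nur77 line was higher at 1 without LPS (beside 6.05%) and at 2 after it (beside 5.95%).

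The remaining regions were weak or called in part of the libraries. At Klf2, the region 45.5 kb upstream was called in 10 libraries and passed no contrast, and those 15.1 kb upstream and 4.9 kb downstream were called in 6 and 3 libraries at percentiles of 5.2 to 29.5. At Klf6, those 3.1, 4.2 and 19.4 kb downstream were called in 2, 10 and 4 libraries at 2.0 to 50.6, and the 10-library one passed no contrast. Those 43.9 and 46.3 kb downstream of Klf2 overlap the gene Eps15l1, an endocytic adaptor, as do those 28.3, 28.8 and 38.2 kb downstream of Klf2. Eps15l1 is the protein-coding neighbour within 50 kb of Klf2, and the other 4 neighbours are lncRNA genes or pseudogenes. Around Klf4 and Klf6 the 3 neighbours of each within 50 kb are lncRNA genes. A region between 2 genes was not tied to either by these data.

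Other genes of the family did not show the Klf6 pattern at their promoters. That pattern is rare, at 0.21% of the promoter regions called in 6 of 6 GFP libraries, so its absence is not particular to the family. The list of 23 other KLF and SP genes was written with earlier results of these data known. It has 189 regions within 50 kb, of which 85 were called in all 12 libraries, beside 34.7% of all regions. Of the genes on this list, 13 had a promoter region, and at 13 of 13 one was called in all 12 libraries. The share of all promoter regions called in all 12 libraries is not given here. LPS gained 1 (0.529%, beside 1.96% of all regions) and lost 0 of the 189 in the GFP line, and gained 4 (2.12%, beside 1.94%) and lost 0 in the Nur77 line. The Nur77 line lost 6 without LPS (3.17%, beside 3.4%) and 2 after it (1.06%, beside 2.18%), and gained 0 in either. The strongest of these was 1.1 kb from Klf3, a transcriptional repressor gene, called in 6 of 6 LPS-treated and 0 of 6 untreated libraries (percentile 62.8 ± 8.1, SD, n = 6). A region 5.3 kb from Sp9 was called in 6 of 6 GFP and 0 of 6 Nur77 libraries, at 25.6 ± 8.7 (SD, n = 6).

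The ERK5 cascade, MEF2 and FOXO genes (10 genes, 142 regions, 48 called in all 12 libraries, beside 34.7% of all regions) were counted in the same way. LPS gained 1 (0.704%, beside 1.96%) and lost 1 (0.704%, beside 1.02%) in the GFP line, and gained 1 (0.704%, beside 1.94%) and lost 0 in the Nur77 line. The Nur77 line gained 1 (0.704%, beside 0.308%) and lost 2 (1.41%, beside 3.4%) without LPS, and gained 0 and lost 4 (2.82%, beside 2.18%) after it. A region 47.8 kb from Foxo1, a forkhead factor gene, was called in 6 of 6 LPS-treated and 0 of 6 untreated libraries at 42.3 ± 15.1 (SD, n = 6). Of 9 genes with a promoter region, 8 had one called in all 12 libraries. The exception was Mef2b, called in 3 GFP and 0 Nur77 libraries. For these promoter counts too, the share over all promoter regions is not given here.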

How the data were processed

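The submitters gave 1 narrowPeak list per library, 12 in all. The tools in the submitters' processing notes are cutadapt 2.6 and DiffBind 3.0.15, and the build is mm10; the sources used here name neither aligner nor peak caller. According to the peak names in the deposited lists, reads had a mapping quality of 20, mitochondrial reads and duplicates were taken out, and the q value was 0.001. The deposited score repeats the −log10 q as a whole number (10 times its value, rounded down) in 99.18% to 100.0% of a list's rows. The deposited fold values are the authors' ratio of a summit over background, and the deposited −log10 p and −log10 q belong to the summit. Lists were called separately and hold no read counts, so depth is unknown; these values served only to describe and rank peaks within a list.

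Rows with the same start and end were collapsed, chromosomes 1 to 19, X and Y were kept, and overlapping or touching peaks were merged with bedtools 2.31.1 into 100374 regions. A library called a region from 1 bp of overlap. Coordinates are 1-based. Genes and start sites come from RefSeq tables of the same build. A promoter region is one that overlaps a protein-coding gene's promoter window, from 250 bp before to 50 bp after the start site. Normal scores of ranks were fitted with limma 3.58.1 (R 4.3.3) on 4 group means, with Benjamini-Hochberg adjustment at 0.05, and the scripts were tested on simulated data. Scripts ran in Python 3.11.15 with scipy 1.17.1, pandas 2.3.3, numpy 2.4.6 and, for plots, matplotlib 3.10.9. No 2 libraries shared more than 0.122% of their intervals.

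The members and lists were chosen with earlier results of these data known. Regions are named when they overlap a gene or lie within 1000 bp of it, are gained or lost, rank among a gene's 3 highest or pass limma; the Klf2 regions of the wider set, the remaining weak regions and the summits were named after their values were seen. Some regions that this naming picks are not reported here. Family genes are named from those with a gained or lost region, by highest percentile; promoters of the lists, with Mef2b, were looked at afterwards. Alternatives were trimmed lists (36184 peaks), a −log10 q of at least 5, 200 bp of overlap, 25 kb, ranks by fold, the whole-list percentile, a replicate block, regions in at least 10 libraries, and leaving out each library.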

Additional observations from a re-analysis of the deposited data

How the results depend on the processing

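Over 15 summary counts and 5 single rank calls, 270 values were recomputed, of which 217 kept their direction and side of the threshold or stayed within 1.5 times, 22 fell short of the threshold, 31 moved and 0 reversed. The Klf6 promoter kept its 6-to-0 calls under each alternative run on calls, and both line summits (Klf6 and Klf4) stayed when summits were joined within 50 or 200 bp or 1 library was left out. With lists trimmed to 36184 peaks, LPS gained 1 and lost 0 regions in the Nur77 line, and the Nur77 line gained 1 without LPS and 2 after it. With a −log10 q of at least 5, LPS lost 1 in the GFP line and gained 1 in the Nur77 line, and the Nur77 line gained 1 after LPS. Within 25 kb, LPS gained 1 in the Nur77 line. Leaving out 1 library gave 0 to 1 gained and 0 to 1 lost by LPS in the GFP line, 1 to 3 lost by LPS in the Nur77 line, 0 to 1 gained and 1 to 2 lost between untreated lines, and 0 to 2 gained and 1 to 2 lost between LPS-treated lines. With 1 library left out, the limma calls ranged from 1 to 3 for LPS in the GFP line, 0 to 2 between untreated lines and 0 to 1 between LPS-treated lines. With the whole-list percentile limma called 0 members in each of these 3 contrasts. With regions in at least 10 libraries it called 2 for LPS in the Nur77 line and 2 between LPS-treated lines. In that set LPS in the GFP line called 2 members higher and the Klf2 region 49.8 kb upstream lower, with the 37.0 kb region left out. For all of these the cause was not tested, except that fewer libraries or regions entered where some were left out.

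Replicate numbers did not pair the libraries: over 18 same-numbered pairs the correlation of deviations ran from −0.16 to 0.14, with 2 over 0.1, and other pairs ran from −0.15 to 0.22. With the replicate block limma called 3, 0, 1, 1 and 0 members in the 5 contrasts, as without it, and adjusted p of the 5 calls was 0.00686 to 0.0358. An uncalled region is one with no listed peak, which can be a peak that missed the authors' q or sequence without reads, and the lists do not tell these apart.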
